A study of Homo sapiens with 19 samples.

Results

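A pair of siRNAs against the same gene, YAP1, were set against each other in HepG2 cells, an established line from a human liver cancer. The comparison rests on 6 of the 19 arrays of the study, 3 with siYAP1 and 3 with siYAP2, and covers all 25582 probe sets of the array. The arrays were chosen by their titles, which name the siRNA. HepG2 cells received siYAP1 or siYAP2 at 20 nM (n = 3 each) or a nonsense control siRNA (n = 3), whose dose the labels give as 20 nM in 1 place and 40 nM in another. Transfection was transient and RNA was taken after 24 h. A further 10 arrays carried an siRNA against TAZ: siTAZ2 (n = 3) or siTAZ3 (n = 2) alone at 20 nM, siTAZ2_siYAP1 (n = 3) or siTAZ3_siYAP2 (n = 2) at 40 nM in total. The design text says of the control and single YAP1 siRNA arrays, and not of the 10 TAZ arrays, that they are also part of another deposit, so levels were compared only within either set of arrays. All groups share the cell line and the transfection, and no group of untreated cells is used here. Replicates are not stated to be separate cultures, so the spread that p-values rest on may be technical.

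YAP, the product of YAP1, is a transcriptional co-activator that the kinases of the Hippo pathway hold in the cytoplasm. In the nucleus it binds TEAD transcription factors together with its paralogue TAZ, the product of WWTR1, and in liver it is known for its part in organ size, regeneration and tumour growth. An siRNA is loaded into an Argonaute protein and directs it to cut the mRNA it fully matches, and it can also lower other mRNAs that match its seed bases. For that reason a gene is commonly knocked down with independent siRNAs, and their profiles are set side by side. The siRNA sequences were not used here.

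Values are log2 RMA values (a method that corrects background, equalises the distribution of all arrays and summarises the probes of a gene), so a difference of 1 is 2-fold. The correlation of each single YAP1 siRNA or control array with the other arrays had a median of at least 0.9929. The array labelled siTAZ2 replicate 3 stood apart, with a median correlation of 0.9866, and the differences on the TAZ arrays are given with and without it. Of 10 hepatocyte and HepG2 markers, the group means lay between 9.87 and 13.5, against an array median of 4.83. Their summed level was 15.80 to 15.81 in control, 15.80 to 15.83 with siYAP1 and 15.89 to 15.90 with siYAP2 (log2). Between the siRNAs 2 of the 10 passed (20%), FGB and TTR, both lower with siYAP1. That share is near the 19.6% of the 6396 probe sets with the highest mean signal, and 7.50% of all probe sets passed. Without siYAP2 replicate 2 neither marker passed. Of 11 markers of blood, endothelial and stromal cells 0 passed by limma (1 at an unadjusted p under 0.05, against 4746 of all 25582 probe sets). With an intensity trend in limma 1 passed, LYZ, higher with siYAP1 (0.14, adjusted p = 0.0249). Their summed level was 13.33 to 13.40 in control, 13.37 to 13.48 with siYAP1 and 13.30 to 13.33 with siYAP2. LYZ was the highest of them, at group means of 13.1 to 13.2, whereas the median marker lay at 4.24 to 4.27, under the array median. No marker was at 0, because the scale has no 0. In bulk RNA, fewer cells of a kind and less RNA per cell cannot be told apart.

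YAP1 itself was lowered to the same extent by both siRNAs within the error of these arrays. It read 9.87, 9.81 and 9.83 on the control arrays, 7.14, 7.0 and 7.18 with siYAP1, and 7.11, 7.25 and 7.02 with siYAP2. The siYAP1 and siYAP2 arrays overlapped and all 6 lay more than 2 units under control. The mean left 15.1% of the control level with siYAP1 and 15.3% with siYAP2. Between the siRNAs the difference, siYAP1 minus siYAP2, was -0.02 on the log2 scale (SE 0.074, 95% confidence interval -0.19 to 0.15, limma adjusted p = 0.938), and its sign turned to 0.01 under another normalization (cyclic loess) and with array weights. WWTR1, the paralogue, also overlapped, at 9.19, 9.19 and 9.10 with siYAP1 and 9.19, 9.15 and 9.32 with siYAP2 (difference -0.06, 95% confidence interval -0.21 to 0.09, adjusted p = 0.733). The label of equal knockdown thus held for the mRNA of the target, and no protein values were used here.

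**Figure D1:**
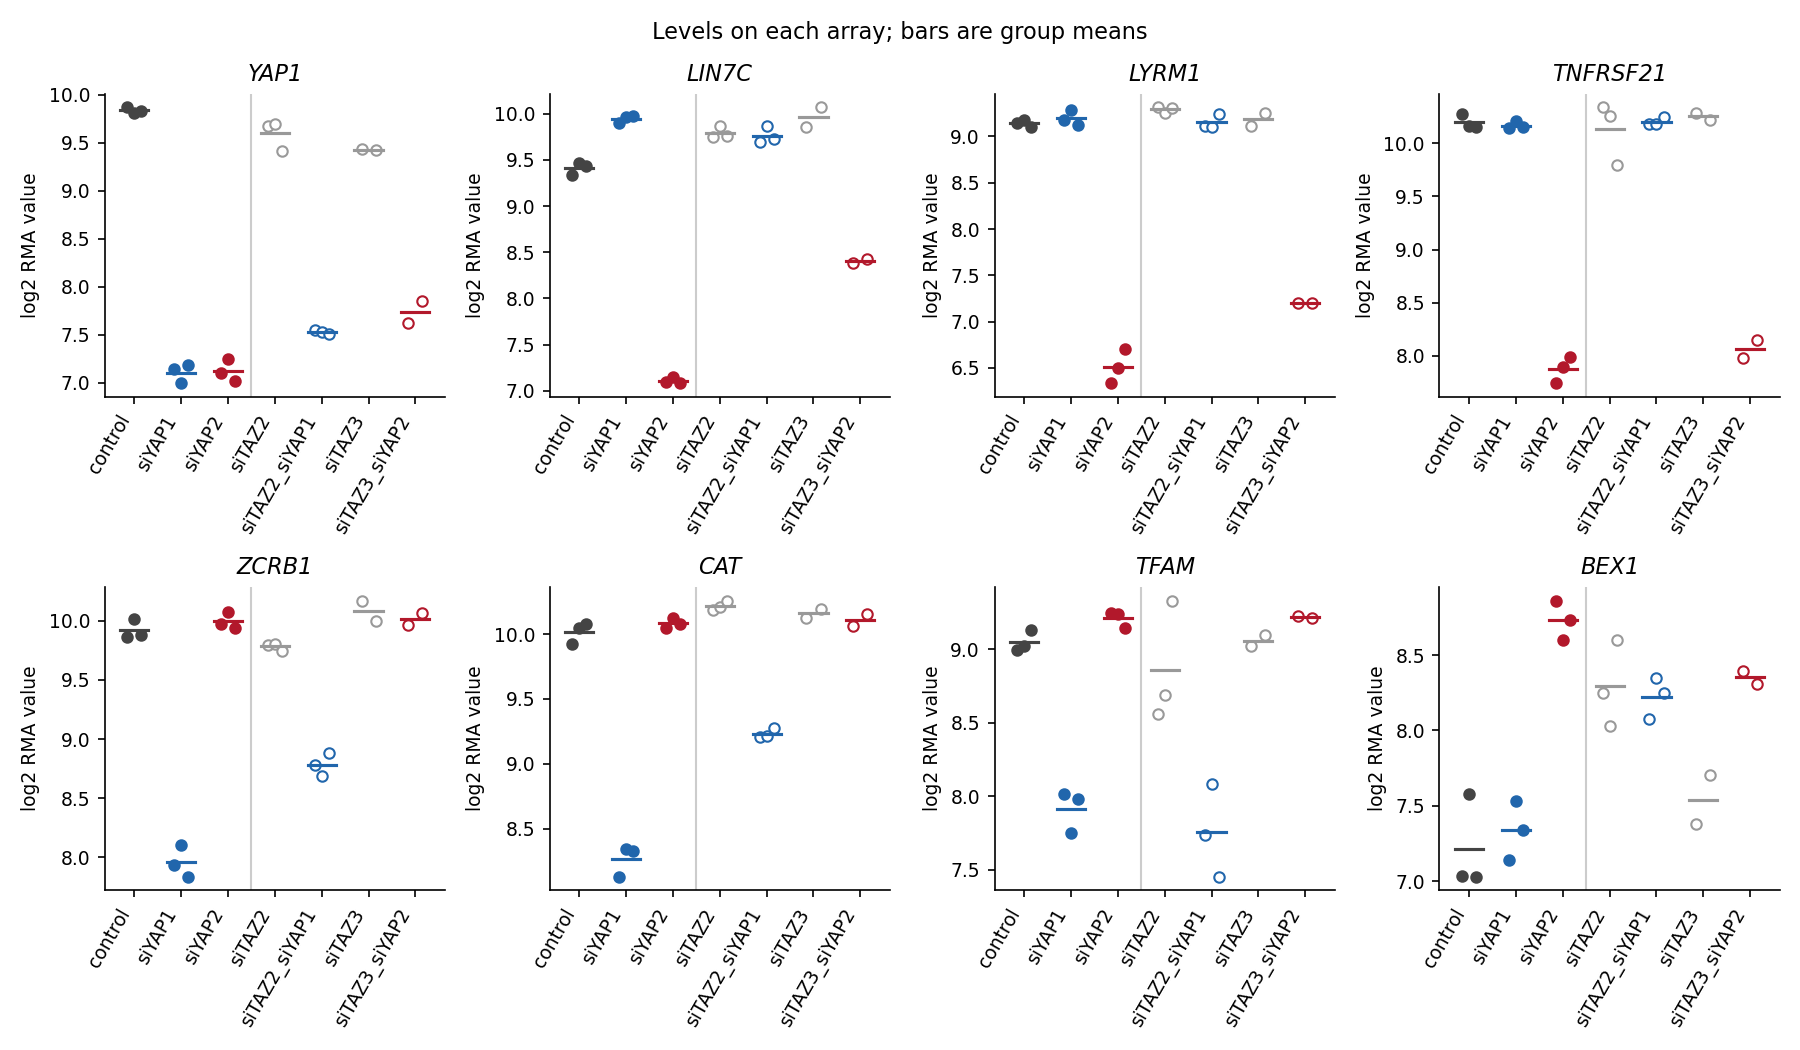
Each panel shows 1 gene, with the log2 RMA value of every array on the vertical axis (axes do not start at 0) and the 7 groups along the horizontal axis. Filled points are control and single YAP1 siRNA arrays, open points are arrays with a TAZ siRNA, and bars are group means. YAP1 sits near 7.1 with both siRNAs, whereas LIN7C, LYRM1 and TNFRSF21 are low with siYAP2, ZCRB1, CAT and TFAM are low with siYAP1, and BEX1 is high with siYAP2.

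In spite of equal YAP1 levels, 1919 of 25582 probe sets (7.50%) differed between the siRNAs at an adjusted p under 0.05 (limma, Benjamini-Hochberg over all probe sets). Of these, 1063 (4.16%) were higher with siYAP1 and 856 (3.35%) were lower. Among them 77 have no gene name here. The 3 siYAP1 arrays did not overlap the 3 siYAP2 arrays in 21.9% of all probe sets. With all 19 arrays in the fit, which adds the array labelled siTAZ2 replicate 3 to the estimate of the spread, 1236 passed, 746 higher and 490 lower. Leaving out siYAP2 replicate 2 gave 1210, and leaving out siYAP2 replicate 3 gave 1254. Called probe sets were mostly bright. The 6396 probe sets with the highest mean signal had 1255 calls (19.6%) and the 6395 with the lowest had 6 (0.0938%). Among the genes called higher and lower with siYAP1, 91.4% and 91.7% were protein coding, against 69.3% of all probe sets. Their median levels were 8.25 and 8.22, against 4.82 over all probe sets. The coding share was not compared at equal signal.

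**Figure D2:**
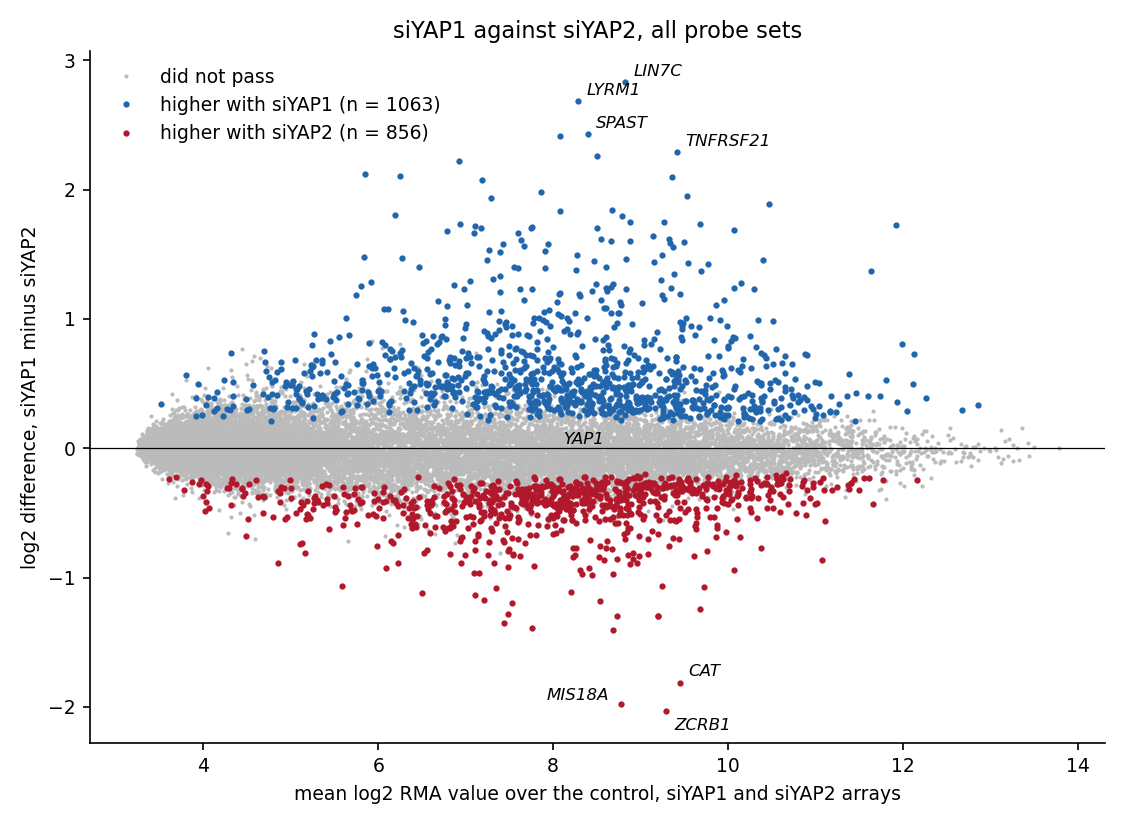
Each point is 1 probe set, with its mean log2 RMA value over the control, siYAP1 and siYAP2 arrays on the horizontal axis and the log2 difference, siYAP1 minus siYAP2, on the vertical axis. Blue points (1063) passed and were higher with siYAP1, red points (856) passed and were higher with siYAP2, and grey points did not pass. YAP1 lies at the zero line, and the differences above it reach further (LIN7C, 2.83) than those below it (ZCRB1, -2.04).

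Large differences were unequal in direction. At least 2-fold differences that passed numbered 152 (0.594%), of which 131 were higher with siYAP1 and 21 were lower. Seen from control, the 131 genes were low with siYAP2. Their median difference from control was 0.14 with siYAP1 and -1.20 with siYAP2, and 128 of them passed as lower than control with siYAP2 (3.13% of all probe sets did). For the 21 genes the medians were -0.91 with siYAP1 and 0.30 with siYAP2, and 17 passed as lower than control with siYAP1 (0.778% of all probe sets did). Both comparisons with control share the 3 control arrays, and the 131 and 21 genes were chosen on these same siYAP1 and siYAP2 arrays. A low side against control is thus partly built in, and these values only describe the genes. Over all probe sets, 396 (1.55%) differed from control with siYAP1, 197 higher (0.770%) and 199 lower. With siYAP2 it was 1515 (5.92%), 715 higher (2.79%) and 800 lower. At least 2-fold lower than control were 16 genes with siYAP1 and 110 with siYAP2, and 4 and 12 were at least 2-fold higher.

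The 12 largest differences upward were all in genes that siYAP2 lowered, with siYAP1 arrays near or above control. Of these, 4 act at the cell surface, at junctions or in the lysosomal membrane. LIN7C, a PDZ scaffold protein of epithelial polarity, read 9.34, 9.47 and 9.43 in control, 9.90, 9.96 and 9.97 with siYAP1, and 7.10, 7.15 and 7.08 with siYAP2. Neither siRNA group overlapped control, and the siRNAs lay on opposite sides of it. The difference between the siRNAs was 2.83 (SE 0.057, 7.12-fold, adjusted p = 2.07e-08), made of 0.53 above control with siYAP1 (adjusted p = 0.00169) and -2.30 with siYAP2. TNFRSF21, which encodes death receptor 6, read 10.28, 10.16 and 10.15 in control, 10.14, 10.21 and 10.15 with siYAP1, and 7.75, 7.90 and 7.99 with siYAP2. All siYAP1 arrays lay on the control arrays and all siYAP2 arrays lay more than 2 units lower. That gives a difference of 2.29 (SE 0.072, 4.89-fold, adjusted p = 3.19e-07). CLDN12, a claudin, read 10.01, 10.20 and 10.08 with siYAP1 and 7.90, 8.01 and 8.07 with siYAP2, against 9.93 to 10.03 in control (difference 2.10, SE 0.071, adjusted p = 3.69e-07). OSTM1, the partner of a lysosomal chloride transporter, read 9.41, 9.21 and 9.28 with siYAP1 and 6.95, 7.15 and 7.02 with siYAP2, against 9.13 to 9.18 in control (difference 2.26, SE 0.072, adjusted p = 3.23e-07). In both genes only siYAP2 passed against control, by -1.99 for CLDN12 and -2.11 for OSTM1.

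Other genes of these 12 serve mitochondria, metabolism, the cytoskeleton and translation. LYRM1, a member of the LYR motif family, read 9.14, 9.17 and 9.11 in control, 9.17, 9.29 and 9.13 with siYAP1, and 6.34, 6.50 and 6.70 with siYAP2. The difference was 2.68 (SE 0.090, 6.43-fold, adjusted p = 3.69e-07), with siYAP1 within 0.06 of control. TMEM65, a protein of the inner mitochondrial membrane, read 7.22, 6.96 and 6.95 with siYAP1 and 4.75, 4.96 and 5.09 with siYAP2, near the array median (difference 2.11, SE 0.117, adjusted p = 4.43e-06). CARNMT1, the carnosine N-methyltransferase, read 8.96, 8.88 and 8.96 with siYAP1 and 6.60, 6.22 and 6.72 with siYAP2. Its difference was 2.42 (SE 0.127, adjusted p = 3.38e-06). EXTL2, a glycosyltransferase of the exostosin family, varied most within siYAP2, at 5.89, 5.08 and 5.70, against 7.83, 7.66 and 7.85 with siYAP1 (difference 2.23, SE 0.170, adjusted p = 3.67e-05). DCK, the deoxycytidine kinase of nucleoside salvage, read 8.71, 8.23 and 8.48 with siYAP1 and 6.52, 6.41 and 6.55 with siYAP2. Its difference was 1.98 (SE 0.110, adjusted p = 4.43e-06), and siYAP1 overlapped the control range of 8.51 to 8.66. SPAST, which encodes the microtubule-severing enzyme spastin, read 9.49, 9.16 and 9.16 with siYAP1 and 6.85, 6.67 and 7.0 with siYAP2, a difference of 2.43 (SE 0.107, adjusted p = 1.25e-06). PDCD4, an inhibitor of translation initiation, read 8.14, 7.91 and 8.01 with siYAP1 and 5.97, 6.05 and 5.80 with siYAP2, against 7.49 to 7.68 in control. It lay above control with siYAP1 by 0.42, which did not pass (adjusted p = 0.0507), and below control with siYAP2 by -1.66 (adjusted p = 4.9e-06). GCSHP3, annotated as a pseudogene of the glycine cleavage gene GCSH, differed by 2.12 (SE 0.114), and GCSH differed by 0.56. Probes of such near-identical copies may be shared, so both values are uncertain.

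The 12 largest differences downward were smaller, between -1.18 and -2.04, and in most of them siYAP1 was the low side. ZCRB1, a component of the minor spliceosome, read 9.86, 10.02 and 9.88 in control, 7.94, 8.10 and 7.84 with siYAP1, and 9.97, 10.07 and 9.94 with siYAP2. The siYAP2 arrays overlapped control and the siYAP1 arrays were almost 2 units lower (difference -2.04, SE 0.080, 4.1-fold, adjusted p = 6.23e-07). MIS18A, which helps to place the centromere histone CENPA, read 7.38, 7.59 and 7.75 with siYAP1 and 9.55, 9.54 and 9.58 with siYAP2, against 9.12 to 9.32 in control (difference -1.98, SE 0.091, adjusted p = 1.76e-06). DEPDC1B, a DEP domain protein of dividing cells, read 8.34, 8.26 and 8.43 with siYAP1 and 9.56, 9.68 and 9.67 with siYAP2, where it overlapped control (difference -1.30, SE 0.072).

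Genes of peroxisomes and mitochondria were among these 12. CAT, which encodes the peroxisomal enzyme catalase, read 9.92, 10.05 and 10.08 in control, 8.13, 8.35 and 8.33 with siYAP1, and 10.05, 10.12 and 10.08 with siYAP2. The difference was -1.81 (SE 0.073, 3.51-fold, adjusted p = 7.17e-07) and lay on the siYAP1 side. PEX19, a chaperone for peroxisomal membrane proteins, read 7.57, 7.87 and 7.94 with siYAP1 and 9.21, 9.25 and 9.13 with siYAP2 (difference -1.40, SE 0.096, adjusted p = 1.82e-05). TFAM, the mitochondrial transcription factor that packages mitochondrial DNA, read 8.01, 7.75 and 7.98 with siYAP1 and 9.25, 9.24 and 9.14 with siYAP2, against 9.0 to 9.13 in control (difference -1.30, SE 0.079, adjusted p = 8.36e-06). MFN1, a mitofusin that joins mitochondrial outer membranes, read 7.77, 7.91 and 7.72 with siYAP1 and 8.88, 9.08 and 8.99 with siYAP2 (difference -1.18, SE 0.077, adjusted p = 1.3e-05). In these 4 genes siYAP1 passed against control and siYAP2 did not.

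Among the rest of the 12, the cyclophilin gene PPID differed by -1.24 and PPIL4, a cyclophilin-like gene with an RNA-recognition motif, by -1.30, both from a low siYAP1 side. SLC2A10, a member of the glucose transporter family, stood on both sides of control, by -0.93 with siYAP1 (adjusted p = 0.000504) and by 0.43 with siYAP2 (adjusted p = 0.0145). BEX1 and RGL1 had the larger part of their difference on the siYAP2 side. BEX1, a small adaptor protein best known from neurons, read 7.04, 7.58 and 7.03 in control, 7.14, 7.53 and 7.34 with siYAP1, and 8.86, 8.60 and 8.74 with siYAP2. It rose by 1.52 over control with siYAP2 (adjusted p = 0.000307) and lay 0.12 above control with siYAP1 (adjusted p = 0.821). RGL1, an exchange factor for Ral GTPases, rose by 0.82 with siYAP2 (adjusted p = 0.00108) and lay at -0.38 with siYAP1 (adjusted p = 0.118). All 24 genes passed in each of the 17 alternative fits that were run.

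**Figure D3:**
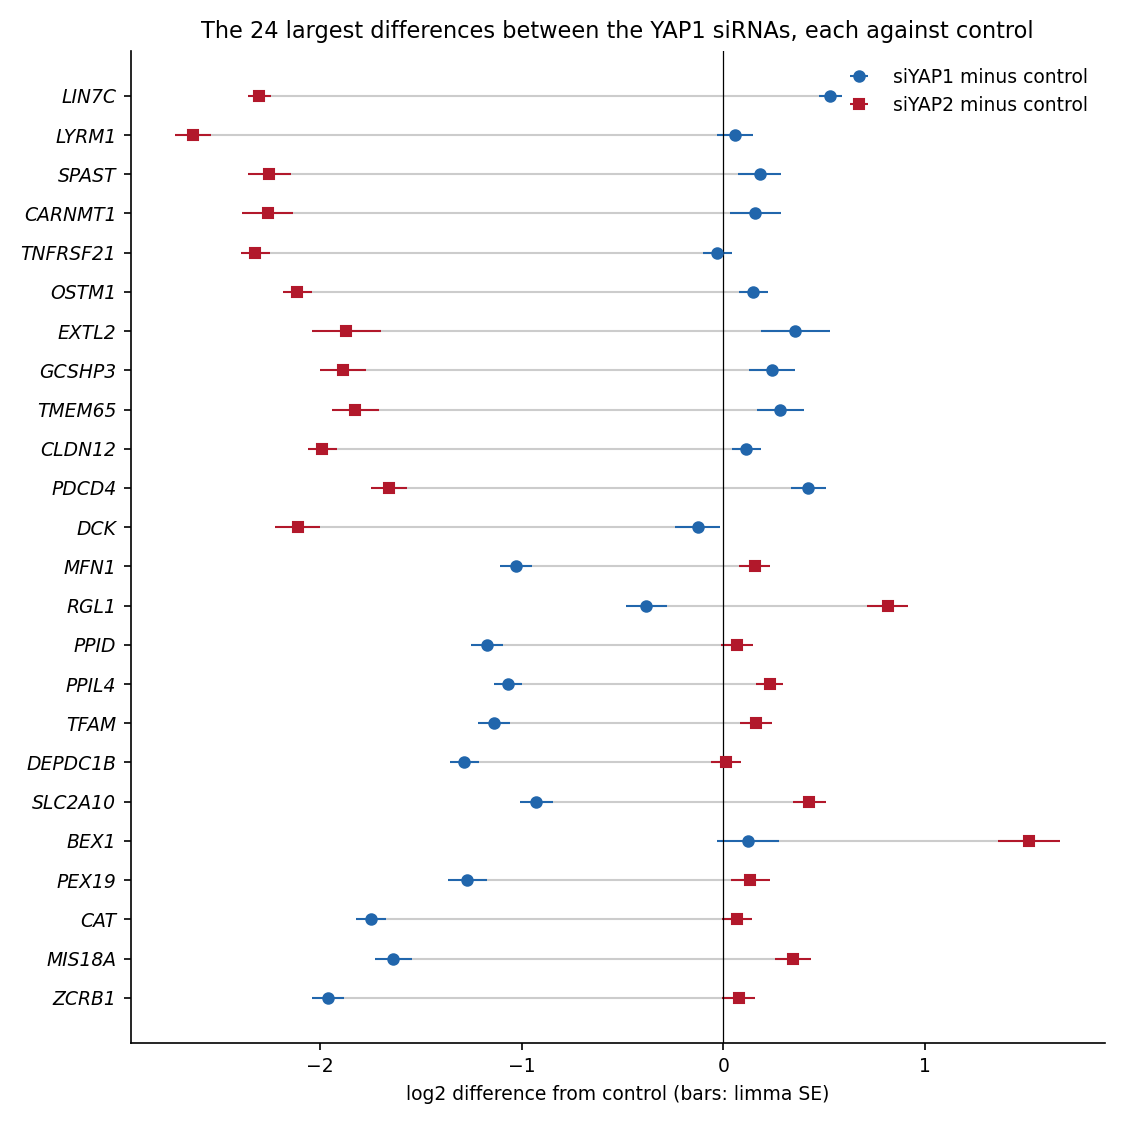
The 24 genes with the largest differences between the siRNAs are listed from top to bottom, and the horizontal axis gives the log2 difference from control with siYAP1 (blue circles) and siYAP2 (red squares), with limma standard errors as bars. In the upper 12 genes the red squares lie between -1.66 and -2.63 and the blue circles between -0.13 and 0.53. In the lower 12 the blue circles lie between -0.38 and -1.96, except BEX1 at 0.12, and the red squares between 0.01 and 1.52. Both series share the control arrays.

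Direct readouts of YAP and TAZ were compared next. CCN1, a secreted matricellular protein and YAP target, was low with both siRNAs. It read 6.83, 6.87 and 6.62 in control, 5.93, 6.15 and 6.14 with siYAP1, and 6.18, 5.92 and 6.09 with siYAP2. The siRNAs overlapped, and the difference was 0.02 (95% confidence interval -0.20 to 0.23, adjusted p = 0.962), while both fell below control, by 0.70 and 0.71. Its sign turned without siYAP1 replicate 2 (-0.02), siYAP1 replicate 3 (-0.02) or siYAP2 replicate 2 (-0.06). ANKRD1, an ankyrin repeat protein used as a YAP and TAZ reporter, read 8.95, 8.82 and 8.72 with siYAP1 and 8.28, 7.99 and 8.15 with siYAP2, against 8.80 to 8.84 in control. The difference of 0.69 passed (SE 0.084, 1.62-fold, adjusted p = 0.000822), with siYAP1 0.01 from control and siYAP2 at -0.68. CCN2, the connective tissue growth factor gene, differed by -0.26 (95% confidence interval -0.44 to -0.09, adjusted p = 0.0728), and AMOTL2, an angiomotin family gene, by -0.09 (95% confidence interval -0.26 to 0.08, adjusted p = 0.623). Neither passed.

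Of 25 measured YAP and TAZ target genes, 4 were higher with siYAP1, 0 were lower and 21 did not pass (16% called, against 7.50% of all probe sets and 19.6% of the brightest 6396), and the median of the list was -0.03. Besides ANKRD1 these were AXL, NT5E and MYOF. The receptor tyrosine kinase AXL read 7.59, 7.74 and 7.78 with siYAP1 and 7.25, 7.20 and 7.08 with siYAP2 (difference 0.53, adjusted p = 0.0044). The ecto-nucleotidase NT5E read 7.44, 7.46 and 7.34 with siYAP1, 7.03, 6.83 and 6.98 with siYAP2 and 6.54 to 6.74 in control, so that both siRNAs stood above control and siYAP1 further (difference 0.47, adjusted p = 0.0044, and adjusted p = 0.132 with all 19 arrays in the fit). MYOF, a membrane repair protein, differed by 0.44 (adjusted p = 0.0248), a call lost without siYAP2 replicate 1 (0.0589), 2 (0.0706) or 3 (0.0976). The call was also lost with the replicate block (adjusted p = 0.0583) and with only the 6 siYAP1 and siYAP2 arrays (0.0731). Of 32 genes of the Hippo pathway and the TEAD family, 3 were higher with siYAP1 and 0 lower (9.38% called, near the 7.50% of all probe sets, with a median of 0.03). With all 19 arrays it was 2 higher and 1 lower. WWC1, an upstream activator of the pathway also called KIBRA, read 7.72, 7.34 and 7.42 with siYAP1 and 6.67, 6.73 and 6.79 with siYAP2 (difference 0.77, adjusted p = 0.000975). MOB1B, a co-activator of the LATS kinases, differed by 0.51 (adjusted p = 0.0127). The scaffold gene SAV1 differed by 0.50 (adjusted p = 0.0209), which was lost without siYAP1 replicate 1 (0.0565), siYAP1 replicate 2 (0.0582), siYAP2 replicate 2 (0.0879) or siYAP2 replicate 3 (0.0683) and with all 19 arrays (0.228).

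Further gene lists are described by their counts, with no test of a list. Each share called is to be read against 7.50% of all probe sets (4.16% higher and 3.35% lower with siYAP1) and 19.6% of the brightest 6396. Immediate early genes, which growth factors and stress induce within minutes, all moved one way where they passed: 7 of 24 were higher with siYAP1 and 0 lower (29.2% called), with a list median of 0.07. EGR1, a zinc finger transcription factor, read 8.78, 8.50 and 8.47 with siYAP1, 7.73, 7.42 and 7.22 with siYAP2 and 7.99 to 8.26 in control. It lay above control with siYAP1 on every array and below it with siYAP2 on every array (difference 1.13, SE 0.137, adjusted p = 0.000818). ZFP36, which destabilises mRNAs, differed by 0.81 (adjusted p = 0.000565) and IER3 by 0.72 (adjusted p = 8.86e-05). FOSL1 (0.49) and KLF6 (0.48) were the next of the 7.

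Autophagy and lysosome genes passed in 5 of 39 cases (12.8%, between both background shares), all 5 higher with siYAP1 and low with siYAP2, with a list median of -0.02. BECN1, a scaffold of the kinase complex that starts autophagosome formation, read 9.45, 9.41 and 9.51 with siYAP1, 7.72, 7.59 and 7.67 with siYAP2 and 9.18 to 9.38 in control (difference 1.80, SE 0.069, 3.48-fold, adjusted p = 5.75e-07). ATG3, the conjugating enzyme for ATG8 proteins, differed by 0.86, LAMP2, a lysosomal membrane protein, by 0.84, and GABARAPL2, an ATG8 protein, by 0.47. VPS11 (0.42) lost its call without siYAP1 replicate 3 (adjusted p = 0.0574), siYAP2 replicate 2 (0.0709) or siYAP2 replicate 3 (0.0683). It also lost it with only the 6 siYAP1 and siYAP2 arrays (adjusted p = 0.0542). With an intensity trend 8 members passed, 6 higher and 2 lower, and the same numbers were obtained with all arrays except that labelled siTAZ2 replicate 3.

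Cell cycle genes were split. Of 46 genes of G1/S and DNA replication, 7 were higher and 5 lower with siYAP1 (26.1% called), with a median of -0.04. SLBP, the histone mRNA binding protein, read 9.85, 9.71 and 9.67 with siYAP1 and 8.92, 8.79 and 8.76 with siYAP2, against 9.77 to 9.95 in control (difference 0.92, SE 0.077, adjusted p = 6.7e-05). DSCC1 (0.79), CDC45 of the replicative helicase (0.66), the polymerase subunit POLA1 (0.56) and the ribonucleotide reductase subunit RRM2 (0.53) were likewise low with siYAP2. Of 35 mitosis genes MELK was higher (0.60) and KIF23 lower (-0.33), and their share of 5.71% lies under that of all probe sets. The mitosis count rose to 4 with an intensity trend (1 higher, 3 lower) and with all arrays except that labelled siTAZ2 replicate 3 (2 higher, 2 lower). It fell to 1 without siYAP1 replicate 3 or any of the 3 siYAP2 arrays, and with only the 6 siYAP1 and siYAP2 arrays. Histone genes (0 of 34) and ribosomal protein genes (0 of 21) had no call by limma, with 6 and 1 members at an unadjusted p under 0.05. Over all probe sets 4746 of 25582 were at an unadjusted p under 0.05. The counts of both lists changed with the arrays and with the fit. Without siYAP1 replicate 1 there were 4 histone genes, all higher with siYAP1, without siYAP1 replicate 2 there was 1, lower, and without control replicate 3 there was 1 ribosomal protein gene, lower. The replicate block gave 1 histone gene, higher, and only the 6 siYAP1 and siYAP2 arrays gave 1 ribosomal protein gene, lower. Of 29 Polycomb and chromatin genes 3 were higher and 2 lower (17.2% called), and 2 and 1 with all 19 arrays. EZH2, the methyltransferase of a Polycomb complex, read 8.08, 7.82 and 8.01 with siYAP1 and 8.66, 8.90 and 8.61 with siYAP2, against 8.83 to 9.0 in control (difference -0.75, SE 0.097, adjusted p = 0.00117).

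Of 24 p53 target genes, 12 passed (50%), 2 higher and 10 lower with siYAP1, and the list median was -0.21. Seen from control, 12 of the 24 passed as higher and 2 as lower with siYAP2, with a list median of 0.29. With siYAP1 it was 2 and 1, with a list median of 0.12. Over all probe sets 2.79% were higher and 3.13% lower with siYAP2, and 0.770% and 0.778% with siYAP1. The count of 12 between the siRNAs became 6 (2 higher, 4 lower) with all 19 arrays in the fit, and 7 (1 higher, 6 lower) without siYAP1 replicate 3 or without siYAP2 replicate 3. TP53INP1, a nuclear partner of p53, went against the larger group: it read 7.61, 7.79 and 7.79 with siYAP1 and 6.38, 6.32 and 6.61 with siYAP2, with control between them at 6.91 to 7.02 (difference 1.29, SE 0.087, adjusted p = 1.65e-05). CDKN1A, the cell cycle inhibitor p21, differed by 0.56 (adjusted p = 0.0166), a call lost without siYAP1 replicate 3 (0.064), siYAP2 replicate 1 (0.0671) or siYAP2 replicate 3 (0.0569). TP53I3, an oxidoreductase gene, read 7.80, 7.94 and 8.01 with siYAP1 and 8.46, 8.43 and 8.45 with siYAP2, against 7.69 to 7.85 in control (difference -0.53, adjusted p = 0.00131). TRIAP1 differed by -0.64 and RRM2B by -0.49, the latter with adjusted p = 0.0527 with all 19 arrays.

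Genes of the hypoxia response and glycolysis passed in 9 of 31 cases (29%), 6 higher and 3 lower with siYAP1 (median 0.00). NDRG1, a stress-responsive growth suppressor, read 8.97, 9.24 and 9.24 with siYAP1 and 7.52, 7.43 and 7.39 with siYAP2, against 8.82 to 9.01 in control (difference 1.70, SE 0.087, 3.25-fold, adjusted p = 3.07e-06). EPAS1 and HIF1A, which encode the oxygen-regulated alpha subunits, differed by 0.86 and 0.57, and the hexokinase gene HK2 by -0.49. The call of EPAS1 was lost with all 19 arrays (adjusted p = 0.0968). Among 23 genes of the small RNA machinery, through which siRNAs act, 3 were higher and 2 lower (21.7% called). TNRC6A, the Argonaute partner, read 9.20, 9.06 and 9.11 with siYAP1 and 9.82, 9.81 and 9.81 with siYAP2, against 9.15 to 9.23 in control (difference -0.69, SE 0.055, adjusted p = 5.14e-05), and DICER1 differed by 0.37 (adjusted p = 0.0065). With all 19 arrays 2 of the 23 passed. Of 32 interferon and RNA-sensing genes 2 were lower with siYAP1, BST2 (-0.67) and USP18 (-0.49), and of 20 NF-kB and chemokine genes CCL20 was lower (-0.57). These 2 shares, 6.25% and 5%, lie near the 7.50% of all probe sets. Without siYAP1 replicate 1 the NF-kB count became 2, 1 higher and 1 lower.

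Of 32 plasma protein genes 0 were higher and 6 lower with siYAP1 (18.8% called, near the share of the brightest probe sets, with a median of -0.13), and the count was 2 without siYAP2 replicate 2 and 3 without siYAP2 replicate 3. SERPINF2, the plasmin inhibitor, was the largest, at 8.21, 8.67 and 8.40 with siYAP1, 9.27, 9.33 and 9.19 with siYAP2 and 9.25 to 9.26 in control (difference -0.84, adjusted p = 0.000868). FGG, a fibrinogen chain, differed by -0.32 (adjusted p = 0.00643). Seen from control, 4 of the 32 passed as higher and 0 as lower with siYAP2, with a list median of 0.03. With siYAP1 it was 0 and 1, with a list median of -0.03. Over all probe sets the shares were 2.79% and 3.13% with siYAP2, and 0.770% and 0.778% with siYAP1. The summed hepatocyte and HepG2 markers, given above, were higher with siYAP2 than with siYAP1 on all arrays, and FGB and TTR count in both lists. The part of this shift in the plasma protein list was not tested. The marker calls themselves fell to 0 without siYAP2 replicate 2 and to 1 without siYAP2 replicate 3 or with all 19 arrays. Of 10 metallothionein and zinc-response genes 5 were lower with siYAP1 and 0 higher (50% called, median -0.25), a count that fell to 1 without siYAP2 replicate 2 and to 3 without siYAP2 replicate 1 or with all 19 arrays. MT1F read 7.53, 8.27 and 7.72 with siYAP1 and 8.88, 8.89 and 8.65 with siYAP2 (difference -0.97, adjusted p = 0.0138), and was lost without siYAP1 replicate 3 (0.0534), siYAP2 replicate 1 (0.0528) or siYAP2 replicate 2 (0.0577). The zinc exporter SLC30A1 differed by -0.38 (adjusted p = 0.00153). Seen from control, 2 of the 10 passed as higher and 0 as lower with siYAP2 (list median 0.07). With siYAP1 0 passed in either direction (list median -0.16).

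Lipid and transport genes went both ways. Of 19 cholesterol synthesis genes 5 were higher with siYAP1 and 0 lower (26.3% called), and the list median of 0.20 compares with -0.01 over all probe sets. SREBF2, the transcription factor of the pathway, read 7.66, 7.82 and 7.79 with siYAP1 and 6.98, 7.31 and 7.16 with siYAP2, against 7.64 to 7.90 in control (difference 0.60, adjusted p = 0.00429). The count of 5 became 3 without control replicate 2, control replicate 3, siYAP1 replicate 3, siYAP2 replicate 1 or siYAP2 replicate 2, and 2 without siYAP2 replicate 3, and 1 of the 3 without siYAP1 replicate 3 was lower. It was 3 with the replicate block and 2 with only the 6 siYAP1 and siYAP2 arrays. It became 8, 6 higher and 2 lower, with an intensity trend and with all arrays except that labelled siTAZ2 replicate 3, so the single direction did not hold there. Of 20 organic ion and bile acid transporter genes 3 were higher and 3 lower (30% called). ABCG2, a drug efflux pump, read 8.52, 8.48 and 8.46 with siYAP1 and 7.59, 7.46 and 7.31 with siYAP2, against 8.14 to 8.31 in control (difference 1.04, SE 0.079, adjusted p = 3.67e-05). ABCG8, a subunit of the sterol exporter of hepatocytes, stood on the other side at -0.67 (adjusted p = 0.00396). The sulfotransferase gene SULT2A1 was lower by -0.63 (adjusted p = 0.000273), and MTTP, which loads lipid onto apolipoprotein B, by -0.43 (adjusted p = 0.00173). Of 37 secretory pathway genes 6 were higher and 2 lower (21.6% called). CNIH1, a cargo receptor of vesicle export, was low with both siRNAs and lower with siYAP1, at 8.61, 8.64 and 8.61, against 9.30, 9.44 and 9.39 with siYAP2 and 9.94 to 9.99 in control (difference -0.76, SE 0.056, adjusted p = 2.86e-05). TMED5 (0.87) and COPB2 (0.73) were low with siYAP2.

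The remaining lists are given by their counts. Of 40 actin cytoskeleton and adhesion genes 3 were higher and 3 lower (15% called), among them the integrin ITGA2 (-0.69, adjusted p = 0.000362) and the desmosomal cadherin DSG2 (0.51). In the list of 30 ATF4 and unfolded protein response genes 2 were higher and 5 lower (23.3% called), falling to 4 in all without any 1 of the 3 siYAP2 arrays and to 3 with all 19 arrays. Fatty acid synthesis and triglyceride genes had 3 higher and 5 lower of 27 (29.6% called, 4 in all without siYAP1 replicate 3 or siYAP2 replicate 1, 5 without siYAP2 replicate 2 or 3 or with all 19 arrays). Fatty acid oxidation genes had 4 higher and 1 lower of 26 (19.2% called, 3 in all without control replicate 3, siYAP1 replicate 3 or any siYAP2 array, and 2 with all 19 arrays). Homologous recombination and Fanconi repair genes had 3 higher and 4 lower of 30 (23.3% called, 4 in all without control replicate 3 or siYAP2 replicate 1, and 3 without siYAP2 replicate 2). The repair count was 4 with the replicate block and 3 with only the 6 siYAP1 and siYAP2 arrays. With those 6 arrays, 5 fatty acid synthesis and triglyceride genes passed. The calls in apolipoprotein genes (1 higher and 2 lower of 18), hepatocyte transcription factors (1 lower of 20), drug and bile acid metabolism (2 lower of 33) and fetal liver and biliary markers (1 higher of 22, IGF2BP3 at 0.77) are too few to describe a list.

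**Figure D4:**
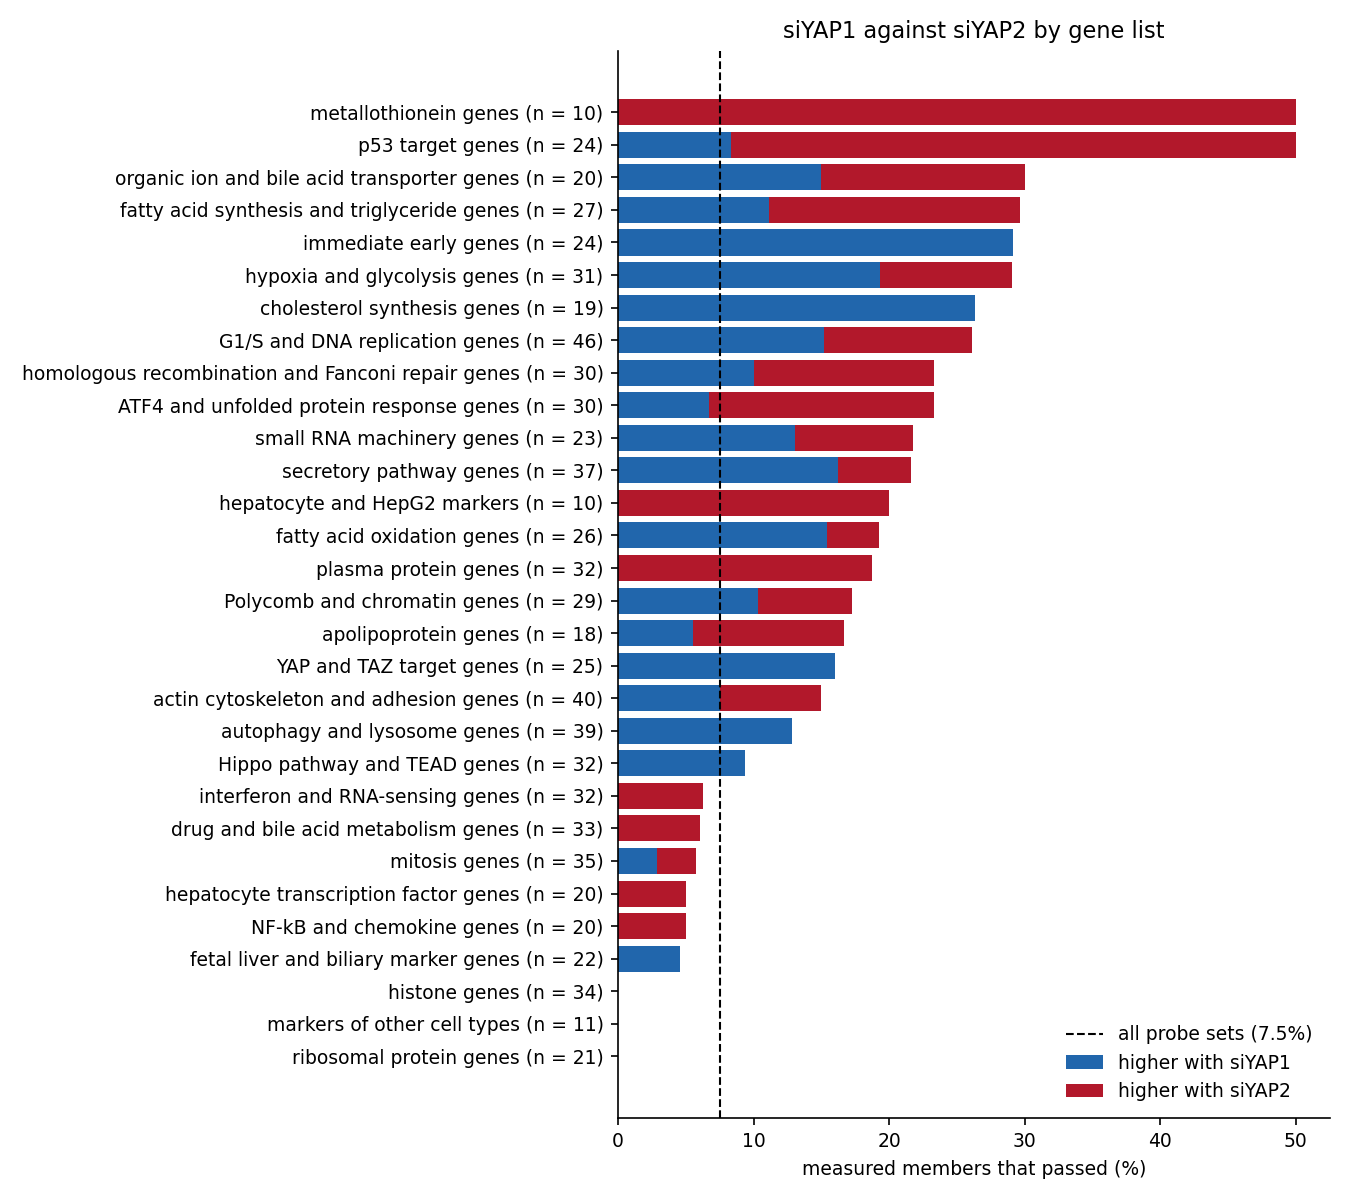
Each bar is 1 gene list, and its length gives the percent of measured members that passed between siYAP1 and siYAP2, in blue for members higher with siYAP1 and in red for members higher with siYAP2. The dashed line marks the 7.50% of all probe sets. Immediate early, autophagy and cholesterol synthesis genes are all blue, plasma protein and metallothionein genes are all red, and histone and ribosomal protein genes have no bar.

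The 10 arrays with a TAZ siRNA gave an estimate of the same difference on arrays that the comparison above does not use. There siYAP1 was added to siTAZ2 and siYAP2 to siTAZ3, and the effect of adding one was subtracted from that of adding the other. Because each YAP1 siRNA met a different TAZ siRNA, a dependence on that TAZ siRNA cannot be told apart from a difference between the YAP1 siRNAs. YAP1 read 9.67, 9.70 and 9.42 with siTAZ2 and 7.55, 7.53 and 7.51 with siYAP1 added, and 9.43 and 9.42 with siTAZ3 and 7.63 and 7.85 with siYAP2 added. In the group means YAP1 lay lower by 2.07 with siYAP1 added (2.16 without siTAZ2 replicate 3) and by 1.69 with siYAP2 added, and the difference of -0.38 did not pass (95% confidence interval -0.70 to -0.05, adjusted p = 1, and -0.47 with adjusted p = 0.261 without siTAZ2 replicate 3). That interval is not adjusted for the number of probe sets and leaves out 0, so equal knockdown of YAP1 was not shown on the TAZ arrays. In this setting 8 probe sets passed (0.0313%), 7 higher (0.0274%) and 1 lower (0.00391%), and 72 passed (0.281%) without siTAZ2 replicate 3. Leaving out each array in turn gave between 1 and 72. Of the 72, 70 were among the 1919 genes that differed between the single siRNAs, which is 97.2% of the 72 and 3.65% of the 1919, all with the same sign.

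Signs were shared more widely than calls. Of the 1919 genes, 1489 (77.6%) had the same sign on the TAZ arrays, and 1684 (87.8%) without siTAZ2 replicate 3, against 53.9% and 57.6% of all probe sets. Among the 152 genes with a difference of at least 2-fold, 149 had the same sign, and 150 without siTAZ2 replicate 3. Across the 1919 genes, which are not independent of one another, the correlation of both estimates was 0.744, and 0.837 without that array. These genes were selected for a difference, and over all 25582 probe sets it was 0.360 and 0.461. The 131 and 21 genes were chosen for their difference between the single siRNAs, so a smaller value elsewhere is a description and no test. The median of the 131 genes was 1.37 between the single siRNAs and 0.70 on the TAZ arrays (0.78 without siTAZ2 replicate 3), and that of the 21 genes was -1.24 and -0.86 (-0.77). The 131 genes had a median of -0.79 on adding siYAP2 to siTAZ3, with 131 of 131 lower. On adding siYAP1 to siTAZ2 their median was -0.06, with 83 of 131 lower, and it turned to 0.02, with 59 lower, without siTAZ2 replicate 3. The 21 genes had a median of -0.56 on adding siYAP1 to siTAZ2, with 20 of 21 lower (-0.65, with 19 lower, without that array), and of 0.14 on adding siYAP2 to siTAZ3.

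The 8 genes that passed on the TAZ arrays were LIN7C, LYRM1, TNFRSF21, PDCD4, BLOC1S6, CAT, POGLUT1 and CPOX. The last 2, a protein O-glucosyltransferase gene and the coproporphyrinogen oxidase gene of haem synthesis, are named after their values were seen. TNFRSF21 read 10.34, 10.26 and 9.80 with siTAZ2, 10.18, 10.18 and 10.24 with siYAP1 added, 10.29 and 10.22 with siTAZ3, and 7.98 and 8.15 with siYAP2 added. Adding siYAP2 therefore took it down by 2.19 and adding siYAP1 left it 0.07 above siTAZ2, or at -0.10 without siTAZ2 replicate 3 (difference 2.26, adjusted p = 0.016, and 2.09 with adjusted p = 0.000685 without siTAZ2 replicate 3). For LYRM1 the difference was 1.85 with and without that array (adjusted p = 0.00109 with it), and for PDCD4 it was 1.59 (adjusted p = 0.0216, and 1.68 without it). BLOC1S6, a subunit of a complex for lysosome-related organelles, differed by 1.62 between the single siRNAs and by 1.44 here (adjusted p = 0.00674, and 1.47 without it). CAT read 10.19, 10.21 and 10.26 with siTAZ2 and 9.21, 9.22 and 9.27 with siYAP1 added, and 10.13 and 10.19 with siTAZ3 and 10.06 and 10.16 with siYAP2 added (difference -0.93, adjusted p = 0.0207, and -0.91 without it). Of the 24 genes described above, all 24 kept their sign on the TAZ arrays, 5 passed there, and 11 more passed without siTAZ2 replicate 3. Among the 11, MIS18A, SPAST and CLDN12 stood at -1.47, 1.04 and 1.58 without that array and at -1.78, 0.68 and 1.88 with it. The other 8 passed in neither case, among them TFAM (-1.26, adjusted p = 0.756), EXTL2 (0.91, adjusted p = 1), BEX1 (-0.88, adjusted p = 0.809) and GCSHP3 (0.42, adjusted p = 1). Without siTAZ2 replicate 3 TFAM stood at -1.03, EXTL2 at 1.17, BEX1 at -0.73 and GCSHP3 at 0.72.

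**Figure D5:**
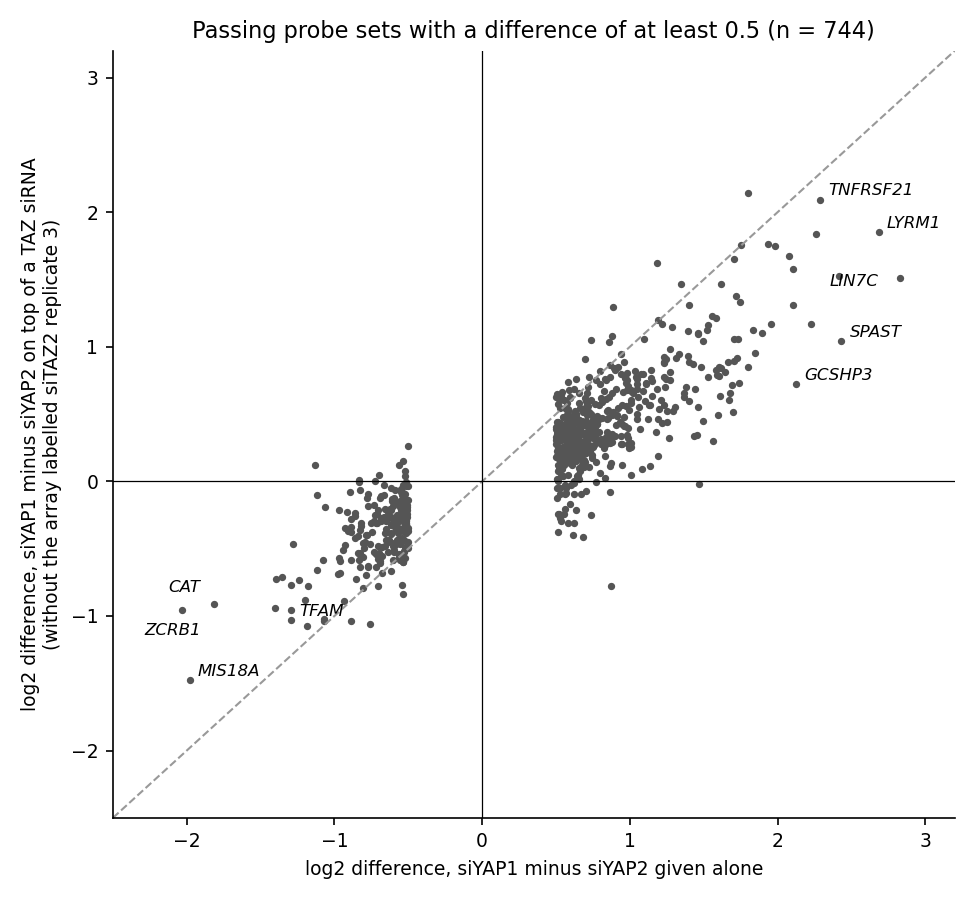
Each point is 1 of 744 probe sets that passed between the single siRNAs with a difference of at least 0.5. The horizontal axis gives that log2 difference and the vertical axis the log2 difference estimated on top of the TAZ siRNAs without the array labelled siTAZ2 replicate 3, and the dashed line marks equal values. Most points lie in the quadrants of equal sign and nearer to 0 than the dashed line.

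The YAP and TAZ reporters gave no call on the TAZ arrays. ANKRD1 read 6.71, 6.70 and 7.48 with siTAZ2 and 5.02, 5.12 and 4.96 with siYAP1 added, and 6.81 and 6.78 with siTAZ3 and 5.13 and 4.63 with siYAP2 added. Both YAP1 siRNAs thus lowered it to near the array median there, and the difference was -0.01 (adjusted p = 1, and 0.25 with adjusted p = 0.942 without siTAZ2 replicate 3). Against the 0.69 between the single siRNAs this is a change of 0.70 that did not pass (limma, all 19 arrays, adjusted p = 0.967, and 0.45 with adjusted p = 0.776 without siTAZ2 replicate 3). CCN2 differed by -0.19 and turned to 0.24 without siTAZ2 replicate 3. CCN1 differed by -0.19 (-0.28 without that array), WWTR1 by 0.41 (0.31) and AMOTL2 by 0.24 (0.17). Each of these 4 genes had adjusted p = 1 with the array, and between 0.873 (WWTR1) and 0.983 (AMOTL2) without it. Among the lists, the median of the cholesterol genes was 0.26 on the TAZ arrays (0.28 without siTAZ2 replicate 3) and that of the p53 target genes -0.04 (-0.21 without siTAZ2 replicate 3), and 0 members of either passed there by limma (4 and 1 at an unadjusted p under 0.05). Over all lists 0 of 779 genes passed on the 10 TAZ arrays, with 64 at an unadjusted p under 0.05. Over all 25582 probe sets 8 passed there, with 1060 at an unadjusted p under 0.05. Without siTAZ2 replicate 3, 3 of the 779 genes passed, against 72 of all probe sets (0.281%). They were BECN1 (0.85, adjusted p = 0.0212), EPAS1 (1.04, adjusted p = 0.0269) and CNIH1 (-1.06, adjusted p = 0.0115), which stood at 0.70, 0.53 and -1.17 with that array. Whether the difference itself changed with the TAZ siRNAs was tested on all 19 arrays, and 14 probe sets passed (0.0547%), 12 higher (0.0469%) and 2 lower (0.00782%). Without siTAZ2 replicate 3 it was 32 (0.125%). The largest was LIN7C, whose difference was larger by 1.31 between the single siRNAs (SE 0.124, adjusted p = 0.000654, and 1.32 without siTAZ2 replicate 3).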

How the data were processed

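Total RNA was labelled with biotin for Affymetrix arrays, per the labels' protocols. The authors deposited log2 values from RMA, as the submitters' processing notes say. Neither the RMA version nor the probe-set definition or genome build is given in the sources used here. The 19 columns are identical once sorted (3.17 to 13.78), so any shift common to all genes of a group is lost. The platform annotation gives 24244 of the 25582 probe sets 1 symbol each, the other 1338 are unnamed here, and 24195 matched RefSeq records of GRCh38.p14, used for names only. The number of arrays limits the precision.

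In R 4.3.3, the limma 3.58.1 functions lmFit, contrasts.fit and eBayes fitted group means to the 9 control, siYAP1 and siYAP2 arrays, without a filter, and p-values were adjusted by Benjamini-Hochberg over all probe sets, with a threshold of 0.05. The difference on top of the TAZ siRNAs was fitted to the 10 TAZ arrays, and its change to all 19. Fits were checked on simulated data. The difference is always siYAP1 minus siYAP2, and SE is limma's moderated standard error. Alternatives were all 19 arrays, all but siTAZ2 replicate 3, only the 6 siYAP1 and siYAP2 arrays, an intensity trend, leaving out the dimmest 30%, cyclic loess, array weights, the replicate number as a block, and leaving out each array. Genes named throughout are ANKRD1, AMOTL2, CCN1, CCN2, WWTR1 and YAP1. Other genes were picked by rule, and not all of them are printed. These are the 12 largest differences each way among passing named genes whose arrays do not overlap, up to 5 passing members of each list (the 2 largest where none passes), and the 5 largest passing differences each way on the TAZ arrays. Symbols of non-coding RNA by their prefix and of immune receptor segments are not named. There are 874 places in the 30 lists, and 800 of them were measured. The comparison, the members and the lists were chosen with earlier results of these data known, and no list was tested as a set.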

Additional observations from a re-analysis of the deposited data

Results flagged for a closer look

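The change of the siYAP1 minus siYAP2 difference between single siRNAs and TAZ siRNA arrays passed for 14 probe sets by limma, 3 of them unnamed, and these 14 also passed between the single siRNAs. Each of the 11 named genes differed less on top of the TAZ siRNAs. The tested change contains the difference between the single siRNAs, on the same arrays. Both observations therefore follow in part from how the 14 were chosen. The change, single minus TAZ arrays, was 1.31 for LIN7C, 1.09 for WSB2, 1.06 for OSBPL8, 1.06 for BTG3, 1.02 for ZNF280C, 0.93 for HIPK3, 0.73 for GCLM, 0.72 for MAK16 and 0.69 for SPTSSA. For the genes that were low with siYAP1 it was -0.88 for CAT and -1.10 for ZCRB1. WSB2, for example, differed by 1.44 between the single siRNAs and by 0.34 on the TAZ arrays, with and without siTAZ2 replicate 3, and ZCRB1 by -2.04 and -0.93 (-0.95 without that array). All 14 also passed without siTAZ2 replicate 3, where 32 passed in all. The TAZ groups hold 40 nM of siRNA in total with a YAP1 siRNA, and the note of a second deposit does not name them. YAP1 itself also fell less on adding either siRNA to a TAZ siRNA than with the single siRNAs, by the values given above. In the group means it fell less with siYAP2 added than with siYAP1 added. Dose, set of arrays, TAZ siRNA and extent of the YAP1 knockdown therefore cannot be told apart here.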

How the results depend on the processing

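The count of 1919 genes became 1236 with all 19 arrays and lay between 1210 and 2074 when each array was left out in turn. The count against control became 225 with all 19 arrays, 632 with all but siTAZ2 replicate 3 and 242 with the replicate block for siYAP1 (171 to 387 leaving out arrays), and 952 with all 19 arrays for siYAP2 (908 to 1870). The 8 genes on the TAZ arrays became 5 without the dimmest 30%, 61 with array weights, 2 with the replicate block, 63 with all 19 arrays, and 1 to 72 leaving out arrays. The 14 genes whose difference changed became 7 without the dimmest 30%, 36 with array weights, 8 with the replicate block and 2 to 32 leaving out arrays. The YAP1 difference turned to 0.01 with cyclic loess and with array weights (0.0075 and 0.010), and lay between -0.072 and 0.044 leaving out arrays, never passing. CCN1 lay between -0.057 and 0.086 leaving out arrays, and turned negative without siYAP1 replicate 2 (-0.021), siYAP1 replicate 3 (-0.019) and siYAP2 replicate 2 (-0.057). Of 128 passing genes that were followed through the alternatives, not all of them printed here, 85 passed in all alternatives. The calls of APOC3 (13 of 17 alternatives), AGO4 and EZH1 (12 each) were lost most often. Same-numbered arrays of the 9 correlated between -0.11 and 0.12 in their deviations, and 5 of 9 correlated best with an array of their own number. On the TAZ arrays the range was -0.28 to 0.24. These values do not settle whether the numbers mark pairs, and the main fit does not use the numbers. With the replicate block 1565 genes differed between the siRNAs, and with only the 6 siYAP1 and siYAP2 arrays 1357 did. The cause of these changes was not tested.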

Other observations

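Further genes with large differences, chosen after their values were seen, were mostly low with siYAP2. MCL1, an anti-apoptotic BCL2 family member, read 10.17, 10.08 and 10.09 in control, 10.22, 10.18 and 10.24 with siYAP1, and 8.30, 8.29 and 8.19 with siYAP2 (difference 1.95, SE 0.056, limma adjusted p = 2.97e-07), and 0.95 on the TAZ arrays (1.17 without siTAZ2 replicate 3). SKP2, a ubiquitin ligase subunit that targets cell cycle inhibitors, read 11.16, 11.10 and 11.09 with siYAP1 and 9.10, 9.35 and 9.22 with siYAP2, and the siYAP1 arrays overlapped control. E2F5 (1.72), the anaphase-promoting complex subunit CDC23 (1.73), the cell surface proteoglycan GPC6 (1.75) and GABPA, an ETS family transcription factor (1.67), had the same pattern. UHMK1, a serine/threonine kinase gene, was low with both, at 7.81, 7.86 and 7.81 with siYAP1 and 6.10, 6.11 and 6.26 with siYAP2, against 8.78 to 8.81 in control.

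On the other side, MAP2K6 (-1.12), an activator of p38 kinases, PIK3R3 (-1.18), a regulatory subunit of PI3-kinase, and the centromere protector SGO2 (-0.92) were lower with siYAP1. BHMT, a liver enzyme that remethylates homocysteine, read 7.41, 7.70 and 7.35 with siYAP1 and 8.56, 8.38 and 8.26 with siYAP2, against 7.40 to 7.50 in control, so its difference of -0.91 lay on the siYAP2 side.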
